A study of Mus musculus with 13 samples.

Results

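The comparison described here set S1 proximal tubule samples of mice that had received lipopolysaccharide (LPS) as a small dose and then as a larger one against samples of mice that had received saline. It used 9 of the 13 arrays of the series, chosen by their labels: the 5 arrays labelled LPS/LPS and the 4 labelled sham, which are called control here. All mice were male C57Bl/6J. The control mice were injected intraperitoneally with sterile saline of equal volume. The LPS/LPS mice were injected intraperitoneally with 0.25 mg/kg LPS and 24 h later with 5 mg/kg, amounts that the labels also give as 5 µg and 100 µg, and were studied 24 h after the larger dose. No genotype or transgene was named for any group. Whether the arrays are separate animals is not said in the labels, so the p-values below measure only the spread between these samples, which may be technical. Each of the 22180 genes is represented by 1 probe set and is given as a log2 expression value, so a difference of 1 is a 2-fold difference. Levels of different genes are not set against each other, because each has its own probes.

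The proximal tubule begins with the S1 segment, which receives the filtrate directly from the glomerulus. Its cells take back most of the filtered glucose, amino acids, phosphate and bicarbonate, absorb filtered protein through the receptors megalin and cubilin, and secrete organic anions and cations into the urine, work paid for by mitochondrial oxidation of fatty acids and other fuels. LPS, the outer membrane glycolipid of Gram-negative bacteria, is bound by CD14 and sensed by TLR4 with its partner MD-2, and through MyD88 and TRIF it turns on NF-kB targets and interferon-stimulated genes. A first small dose is known to alter the response to a second one, which is called endotoxin tolerance or preconditioning.

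The arrays were alike in centre, with medians of 3.59 to 3.68, but not in width: the SD over all genes ran from 1.277 to 1.418 per array. Control 1 and 4 and LPS/LPS 1 and 5 had wide distributions and the other 5 arrays narrow ones, split at the median SD of the 13 arrays. Control 4 is itself that median array and was counted as wide. Over all genes, the mean correlation of array pairs was 0.865 within a group and 0.866 between the groups. It was 0.886 for pairs of the same width and 0.849 for pairs of different width, so differences below are also given separately for wide and for narrow arrays where these are far apart. Background was judged from 1105 olfactory receptor genes, 95% of which had a mean level at or under 4.77, and 2207 genes had a mean above that reference. Of 10 markers of the S1 and S2 segments, 5 had a control mean above that reference and 4 an LPS/LPS mean above it. Slc5a2, the S1 glucose transporter, was not among them, with a control mean of 4.50. Umod, a marker of the thick ascending limb, had a control mean of 5.11 and Acta2, a smooth muscle actin, one of 5.49. None of the few defining markers of podocytes, endothelium, macrophages, neutrophils or lymphocytes was above the reference in either group. In the longer marker lists used below, 1 podocyte, 1 endothelial and 1 macrophage or monocyte marker had a mean above it.

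Among the genes with a mean above the background reference, large differences were mostly toward lower levels in LPS/LPS. In that set, 81 genes (3.67%) were lower by at least 1 on the log2 scale and 8 (0.362%) higher by at least 1. At 1.5 or more, 24 genes were lower and 2 higher, and at 2 or more, 6 were lower and 0 higher. By sign alone there was no such lean, with 1136 of the 2207 genes lower and 1071 higher. Membership of the set rested on the mean over all 13 arrays, of which only 5 were LPS/LPS. A gene low only in LPS/LPS thus entered the set more easily than one high only there. Cndp2 and Lrp2, for example, had LPS/LPS means of 4.74 and 4.11, under the reference of 4.77. The part of this choice in the lean was not tested. Genes at or below the reference showed no lean toward lower levels, with 48 lower and 41 higher by at least 1. By sign, 44.2% of all 22180 genes were lower and 55.8% higher. Their median difference was 0.03, and 129 of them (0.582%) were lower and 49 (0.221%) higher by at least 1. For the 2207 genes above the reference, the counts within the wide arrays were 118 lower and 45 higher. Within the narrow arrays they were 83 lower and 21 higher. Lower genes were thus the more numerous in each class, but more genes were higher than the 8 in the 9 arrays together. In 60 of the 81, all 5 LPS/LPS arrays lay under the control mean. Without control 1, the lower count was 57 and the higher count 16, and the higher count was 13 without control 4 and 13 without LPS/LPS 4. In these bulk samples, fewer cells of a type and less RNA of a gene per cell cannot be told apart.

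**Figure D1:**
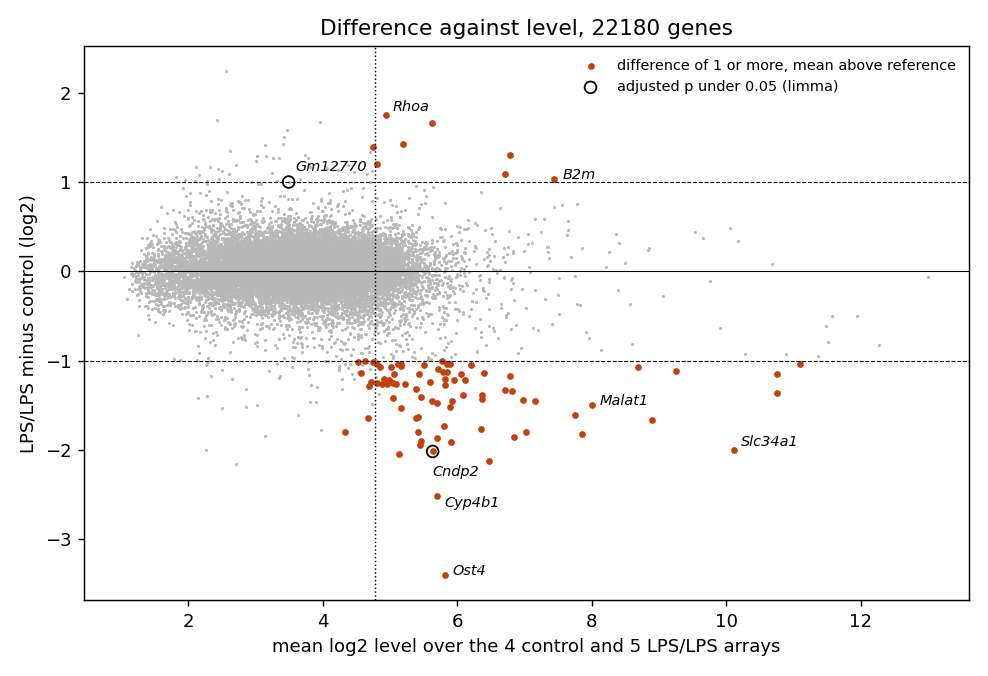
Log2 difference (LPS/LPS minus control) of each of 22180 genes against its mean log2 level over the 9 arrays, with orange points for genes that differ by at least 1 and have a 13-array mean above the background reference, and open circles for the 2 genes past the test. Both axes are log2 values, the dotted vertical line marks the reference and the dashed lines mark 1 and −1. The orange points number 81 below −1 and 8 above 1.

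Only 2 of the 22180 genes passed the test (limma, Benjamini-Hochberg adjusted p under 0.05, 0.00902% of the genes tested), 1 lower and 1 higher in LPS/LPS (0.00451% each). Cndp2 encodes a cytosolic dipeptidase, which splits dipeptides into amino acids. Its level was 7.40, 6.40, 6.66 and 6.57 in the 4 control arrays and 5.03, 3.96, 4.61, 5.04 and 5.05 in the 5 LPS/LPS arrays. Every LPS/LPS array lay more than 1 unit under the lowest control array, and the LPS/LPS mean of 4.74 was itself under the background reference of 4.77. Cndp2 fell by 2.02 (SE 0.24, limma adjusted p = 0.0164), with differences of −1.94 in the wide and −2.0 in the narrow arrays. Leaving out an array kept it lower, but the limma adjusted p was 0.0506 without control 1, 0.0672 without control 4 and 0.0687 without LPS/LPS 3.

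Gm12770, a predicted gene, was the gene that rose. It stood at 2.88, 2.96, 3.02 and 2.89 in control and at 4.25, 3.60, 3.73, 4.12 and 4.01 in LPS/LPS. The groups did not overlap, but all 9 values were under the background reference of 4.77. The rise was 1.00 (SE 0.14, limma adjusted p = 0.0477). Leaving out any array but LPS/LPS 2 ended this call, with limma adjusted p from 0.0687 without LPS/LPS 3 to 0.284 without control 4. With the 9 arrays of the pair fitted alone, 0 genes passed (lowest limma adjusted p 0.153, 1162 genes at an unadjusted p under 0.05), against 1042 at that unadjusted p in the fit of 13 arrays. Those 1042 were 4.70% of the genes tested, no larger a share than a threshold of 0.05 gives where no gene differs. The next gene by adjusted p was BC024386, which differed by −1.91 (limma adjusted p = 0.0861) and did not pass. With the adjusted p threshold set at 0.2, 7 genes passed, 6 of them lower in LPS/LPS.

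The control and LPS/LPS arrays did not overlap for 341 genes (1.54% of 22180), 155 of them lower in LPS/LPS (0.699%) and 186 higher (0.839%). Groups of 4 and 5 arrays that do not differ lie apart in a share of genes near 1.54%. A lack of overlap alone therefore does not show a change, here or for the genes below. With 1 array left out, the number of genes without overlap ran from 571 to 762, since fewer arrays overlap less often. Leaving out predicted genes, small RNAs and receptor families such as Vmn1r, the 12 with the largest negative differences among those with at least 1 group mean above the reference were Cyp4b1, Eef1a1, Cndp2, Slc34a1, Slc22a2, Ndrg1, Gabarapl1, Acsm2, Malat1, Lpl, Atp11a and Fam32a. Their differences ran from −2.52 to −1.41, and of the 12 only Cndp2 passed the test. For Lpl the control mean alone was above the reference, and its mean over the 13 arrays was not. Cyp4b1, a cytochrome P450 of fatty acid and xenobiotic oxidation, was at 8.65, 6.79, 6.16 and 6.83 in control and 5.45, 4.32, 4.60, 3.81 and 4.74 in LPS/LPS. The groups lay apart, and control 1 stood high. The difference was −2.52 (SE 0.55, limma adjusted p = 0.663).

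Ndrg1, which responds to hypoxia and growth arrest, was at 8.35, 7.82, 7.59 and 8.33 in control and 7.21, 5.51, 6.36, 5.74 and 6.27 in LPS/LPS. The lowest control array was above the highest LPS/LPS array, and the difference was −1.80 (SE 0.37, limma adjusted p = 0.428). Malat1, an abundant long non-coding RNA of the nucleus, was at 9.22, 8.86, 8.43 and 8.85 against 8.17, 7.08, 7.20, 6.62 and 7.66. It differed by −1.50 (SE 0.29, limma adjusted p = 0.317), so a nuclear RNA was among those lower in LPS/LPS. Lpl, lipoprotein lipase, which frees fatty acids from circulating triglyceride, was at 5.84, 5.84, 4.76 and 5.79 against 4.14, 4.14, 4.41, 4.35 and 3.32. Control 3 was the low array of its group and LPS/LPS 5 the low array of the other, and the difference was −1.48 (SE 0.26, limma adjusted p = 0.197). Without control 3 the limma adjusted p of Lpl was 0.0315. With the mean of a gene's probe sets in place of the highest one, the difference of Lpl was −0.79 and that of Ndrg1 −1.14.

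Eef1a1, the elongation factor that brings aminoacyl-tRNA to the ribosome, differed by −2.13 (SE 0.57) but spread widely within LPS/LPS, from 3.96 to 6.93. Gabarapl1, a member of the Atg8 family of autophagosome proteins, differed by −1.65, by more in the wide arrays (−2.41) than in the narrow ones (−0.95). Acsm2 encodes a mitochondrial medium-chain acyl-CoA ligase, and it was at 6.75, 5.65, 5.62 and 6.07 in control against 4.43, 4.04, 4.69, 4.84 and 4.44 in LPS/LPS. Its LPS/LPS arrays were close together and under every control array, at a difference of −1.53 (SE 0.28, limma adjusted p = 0.216). Atp11a, a phospholipid flippase, differed by −1.42 and Fam32a by −1.41. With the mean of a gene's probe sets, Eef1a1 differed by −1.20 and Atp11a by −0.80.

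**Figure D2:**
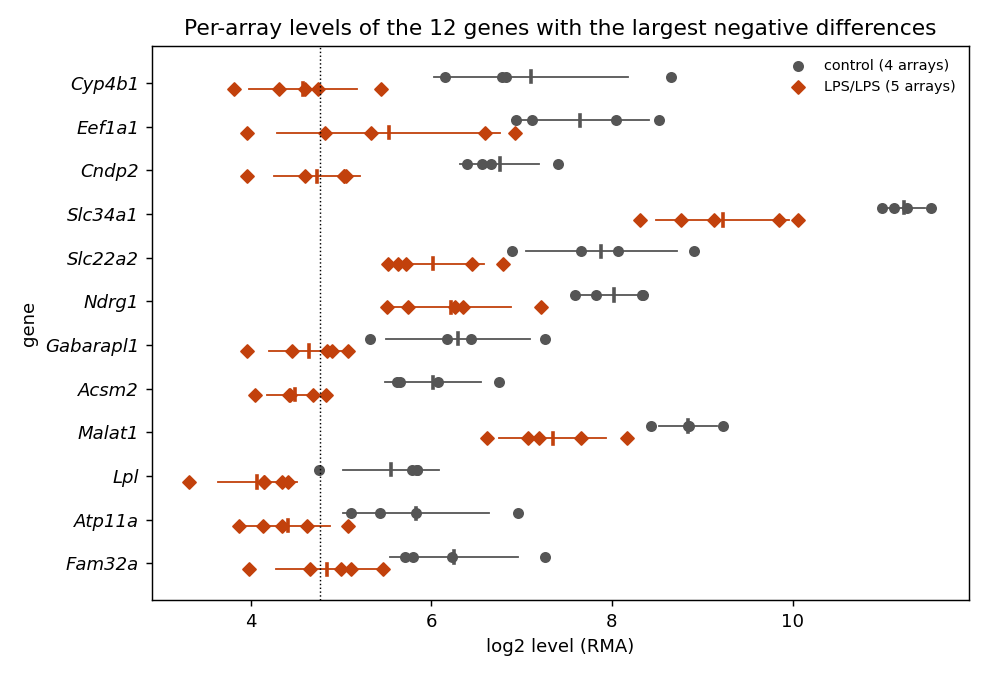
Log2 level (horizontal axis) of the 12 genes with the largest negative differences among those whose groups do not overlap, with a grey circle per control array, an orange diamond per LPS/LPS array, a tick at each group mean and a line of 1 SD either side. The dotted vertical line is the background reference. The orange points lie to the left of the grey ones in each row because the genes were chosen for that, and rows are not to be set against each other in level.

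Some genes with larger differences overlapped between the groups, and those described here were picked after their values were seen. Ost4, a small subunit of the oligosaccharyltransferase complex, had the largest negative difference above the reference, −3.41 (SE 1.02, limma adjusted p = 0.949). It was at 8.26, 7.82, 7.93 and 6.86 in control and 8.52, 2.17, 3.67, 3.83 and 3.36 in LPS/LPS. LPS/LPS 1 thus had the highest value of all 9 arrays and the other 4 LPS/LPS arrays had the lowest. Kap, the androgen-regulated kidney protein of mouse proximal tubule, was at 7.68, 6.75, 4.38 and 6.31 against 5.75, 3.78, 4.14, 4.81 and 2.68, a difference of −2.05 (SE 0.68) with overlap through control 3. Cltrn, collectrin, which brings amino acid carriers to the apical membrane, differed by −1.65 (SE 0.42), and Atp1b1, the beta subunit of the sodium pump, by −1.22 (SE 0.67).

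Of the 8 genes above the reference that were higher by at least 1, 7 overlapped between the groups. Rhoa, the GTPase that controls actin stress fibres, was at 6.45, 2.18, 2.92 and 4.32 in control and 6.24, 7.71, 5.19, 2.79 and 6.67 in LPS/LPS. Both groups spread over more than 3 units, and the difference was 1.75 (SE 0.91, limma adjusted p = 0.987). B2m, the light chain of MHC class I, was at 7.24, 8.24, 5.92 and 6.05 against 9.02, 8.93, 6.21, 8.74 and 6.62, a difference of 1.04 (SE 0.67). Only 3 LPS/LPS arrays were above the highest control array.

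Transport across the apical and basolateral membranes is the main work of these cells. Of 28 measured apical transporter genes, 23 were lower and 5 higher in LPS/LPS, with a median difference of −0.23, against 0.03 over all genes. The median was −0.14 without control 1 and −0.37 without control 3, and −0.50 among the 10 genes with a mean above the reference. None passed the test, and at an unadjusted p under 0.05 there were 3 lower and 0 higher (2.07% and 2.62% of all genes). Slc34a1, the sodium-phosphate cotransporter NaPi-IIa, was at 11.27, 11.54, 10.995 and 11.12 in control. In LPS/LPS it was at 10.06, 9.13, 8.31, 8.76 and 9.86. The control arrays were tight and the LPS/LPS arrays spread over more than 1 unit below them, the wide LPS/LPS 1 and 5 being nearest to control. The difference was −2.01 (SE 0.35, limma adjusted p = 0.197), with −1.24 in the wide and −2.53 in the narrow arrays.

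Slc5a2, the sodium-glucose cotransporter SGLT2, was at 4.42, 4.55, 4.71 and 4.34 in control and 4.32, 3.72, 3.98, 4.49 and 4.13 in LPS/LPS. These groups overlapped, near the background reference, with a difference of −0.37 (SE 0.15, limma adjusted p = 0.987). Slc6a19, the apical carrier of neutral amino acids, differed by −0.48 (SE 0.22) with overlapping arrays.

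At the basolateral side, 15 of 19 transporter genes were lower and 4 higher, with a median of −0.15. Among the 7 of them with a mean above the reference the median was −0.98. None passed the test, and 4 were lower at an unadjusted p under 0.05 (2.07% of all genes). Slc22a2, the organic cation transporter OCT2, was at 8.91, 7.66, 6.89 and 8.07 in control and 6.79, 5.52, 5.64, 5.72 and 6.45 in LPS/LPS. Its groups were next to each other without overlap, and the difference was −1.86 (SE 0.50, limma adjusted p = 0.921). Slc22a6, the organic anion transporter OAT1, was at 8.25, 7.09, 6.33 and 7.69 against 6.65, 5.39, 5.13, 4.48 and 6.20. Here LPS/LPS 1 was above control 3, and the difference was −1.77 (SE 0.57, limma adjusted p = 0.987). Kcnj15, a potassium channel, differed by −0.47.

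Promoter sequence is shown for 3 of these genes of tubule function, because they were among the members with large negative differences and their promoters hold a short motif of a tubule transcription factor. HNF1 factors bind a palindrome whose half-site is GTTAAT, and HNF4A binds sites such as CAAAGTCCA. The sequences are from RefSeq (GRCm38.p6), 250 bases directly upstream of the annotated start, written 5′ to 3′ on the gene's strand, which is the plus strand for all 3. Slc34a1 lies at chr13:55399398-55399647, Slc22a6 at chr19:8617746-8617995 and G6pc, which encodes the catalytic subunit of glucose-6-phosphatase, at chr11:101367466-101367715. Capitals mark GTTAAT on either strand, so that it also appears as ATTAAC.
Slc34a1: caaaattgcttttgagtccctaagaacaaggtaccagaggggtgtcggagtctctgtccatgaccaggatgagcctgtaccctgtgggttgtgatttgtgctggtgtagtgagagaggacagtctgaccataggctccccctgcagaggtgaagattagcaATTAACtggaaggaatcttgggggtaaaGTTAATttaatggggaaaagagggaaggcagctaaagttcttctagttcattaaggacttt
Slc22a6: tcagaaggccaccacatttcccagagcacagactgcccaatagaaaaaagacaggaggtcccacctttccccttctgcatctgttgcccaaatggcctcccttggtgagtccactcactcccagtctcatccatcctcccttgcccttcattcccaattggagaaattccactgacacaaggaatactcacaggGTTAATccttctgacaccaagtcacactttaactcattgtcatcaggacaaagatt
G6pc: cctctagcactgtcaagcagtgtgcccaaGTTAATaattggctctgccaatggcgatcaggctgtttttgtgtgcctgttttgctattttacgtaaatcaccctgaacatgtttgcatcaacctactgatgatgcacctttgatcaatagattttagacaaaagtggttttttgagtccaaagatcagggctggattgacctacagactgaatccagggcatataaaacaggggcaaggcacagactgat
The Slc34a1 window holds 2 half-sites and the other windows 1 each. GTTAAT was found in 7 of 51 promoters (13.7%) of the apical and basolateral transporter genes, of which 37 of 47 matched the promoter table, and in 2113 of all 32851 promoters (6.43%). CAAAGTCCA was in 1 of the 51, that of Slc3a1, and in 0.384% of all. The full palindrome was in 0 of the 51 and in 3 of all. These matches describe letters in a window and not binding.

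Filtered protein is taken up by megalin, cubilin and their adaptors. Of 16 such genes, 13 were lower and 3 higher, with a median difference of −0.29 and no gene past the test (2 lower at an unadjusted p under 0.05, against 2.07% of all genes). Lrp2, megalin itself, was at 6.57, 5.30, 4.87 and 4.86 in control and 4.70, 3.98, 3.90, 3.57 and 4.42 in LPS/LPS. All LPS/LPS arrays were lower than all control arrays, but the highest LPS/LPS and lowest control values were close, and the difference was −1.29 (SE 0.58, limma adjusted p = 0.987). Rab7, a GTPase of late endosomes, differed by −1.26 (SE 0.38), with −0.55 in the wide and −1.92 in the narrow arrays.

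Among 18 brush border peptidases and hydrolases, 15 were lower and 3 higher, at a median of −0.17 (−0.046 without control 1), and the 1 past the test was Cndp2, which the list holds for its peptidase activity although it is cytosolic. Acy3, an aminoacylase, was at 8.14, 5.58, 6.26 and 6.14 against 5.61, 4.53, 4.58, 4.41 and 3.77. LPS/LPS 1 was just above control 2, and the difference was −1.95 (SE 0.57, limma adjusted p = 0.949). Xpnpep2, a membrane aminopeptidase P, went the other way, at 0.51 (SE 0.18), with every array under the reference.

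The list of proximal tubule transcription factors did not lean lower as the transporter lists did. Of 17 measured, 9 were lower and 8 higher, with a median of −0.02 and no gene past the test. Hnf4a, the nuclear receptor that keeps proximal tubule cells differentiated, was at 7.13, 6.18, 6.00 and 6.46 in control and 6.24, 6.13, 6.08, 5.97 and 5.69 in LPS/LPS. The groups overlapped, and the difference of −0.42 (SE 0.23, limma adjusted p = 0.987) was −0.83 in the wide and −0.03 in the narrow arrays, and −0.19 without control 1. The difference between these lists was not tested.

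Energy metabolism leaned lower. In the mitochondrial respiratory complexes 37 of 41 genes were lower and 4 higher, with a median of −0.37. The median was −0.64 in the wide and −0.16 in the narrow arrays, and −0.20 without control 1. None passed the test, and 5 of the 41 were lower by at least 1 (0.582% of all genes) and 4 were lower at an unadjusted p under 0.05 (2.07% of all genes). Atp5b, the catalytic beta subunit of ATP synthase, was at 7.34, 6.76, 5.79 and 7.27 in control and 6.07, 5.63, 5.41, 5.76 and 5.02 in LPS/LPS. It overlapped through control 3, the lowest control array, and the difference was −1.21 (SE 0.46, limma adjusted p = 0.987). Cox8a, a cytochrome c oxidase subunit, also differed by −1.21, and Ndufa2 of complex I by −1.02, the latter mostly in the wide arrays (−1.78 against −0.33) and −0.49 without control 1.

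In the tricarboxylic acid cycle, 19 of 23 genes were lower and 4 higher, with a median of −0.25. Idh2, mitochondrial isocitrate dehydrogenase, differed by −0.93 (SE 0.41) and Mdh2, malate dehydrogenase, by −0.52 (SE 0.22), neither past the test. Sdhc, a membrane subunit of succinate dehydrogenase, was at 4.93, 4.09, 3.75 and 6.69 in control and 3.79, 4.09, 3.75, 3.63 and 3.52 in LPS/LPS. Its difference of −1.11 (−0.50 without control 4) came from control 1 and 4, since control 2 and 3 had the same levels as LPS/LPS 2 and 3.

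Fatty acid oxidation, the main fuel supply of this segment, had 17 of 24 genes lower and 7 higher, at a median of −0.14 (−0.30 in the wide and −0.03 in the narrow arrays, and −0.082 without control 1). Acaa1a, the peroxisomal thiolase, was at 4.73, 4.84, 5.42 and 5.44 against 4.48, 3.97, 4.16, 4.50 and 4.13. It was evenly lower in both width classes (−0.78 and −0.92), with no overlap, a difference of −0.86 (SE 0.17) and a limma adjusted p of 0.4. Etfa, which passes electrons from acyl-CoA dehydrogenases to the respiratory chain, differed by −1.17 (SE 0.46) with all but 1 array under the reference. Peroxisomal genes as a list were near the whole, with 14 of 24 lower and a median of −0.06.

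Proximal tubule cells make glucose. Of 14 genes of gluconeogenesis and glucose handling, 10 were lower and 4 higher, at a median of −0.16, which was 0.05 without control 1, −0.40 in the wide arrays and 0.08 in the narrow ones. G6pc was at 5.85, 4.79, 4.67 and 5.02 in control and 4.18, 3.83, 4.49, 3.07 and 4.09 in LPS/LPS, with no overlap. Its difference was −1.15 (SE 0.30, limma adjusted p = 0.921). Fbp1, fructose-1,6-bisphosphatase, was at 6.52, 5.59, 4.97 and 5.58 against 4.30, 4.02, 4.41, 4.56 and 4.71, again with no overlap, and differed by −1.27 (SE 0.46). Miox, the renal enzyme that oxidises myo-inositol, differed by −1.31 (SE 0.37). Of the 14 genes, 2 were thus lower in every LPS/LPS array than in any control array, as were 0.699% of all genes. They were G6pc and Fbp1, and neither passed the test over all genes. Every LPS/LPS value of both was under the background reference of 4.77.

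Amino acid and ammonia metabolism had 23 of 31 genes lower and 8 higher, at a median of −0.09. Gcsh, a carrier protein of the glycine cleavage system, was higher in every LPS/LPS array than in any control array, by 0.44 (SE 0.14, limma adjusted p = 0.987). Genes of NAD synthesis and the sirtuins were split 10 to 9. In that list Sirt6, a nuclear deacylase, was at 4.32, 4.38, 4.38 and 4.39 in control and 4.63, 4.68, 4.64, 4.77 and 4.76 in LPS/LPS. The separation was clean but small and under the background reference, at 0.33 (SE 0.10, limma adjusted p = 0.987).

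**Figure D3:**
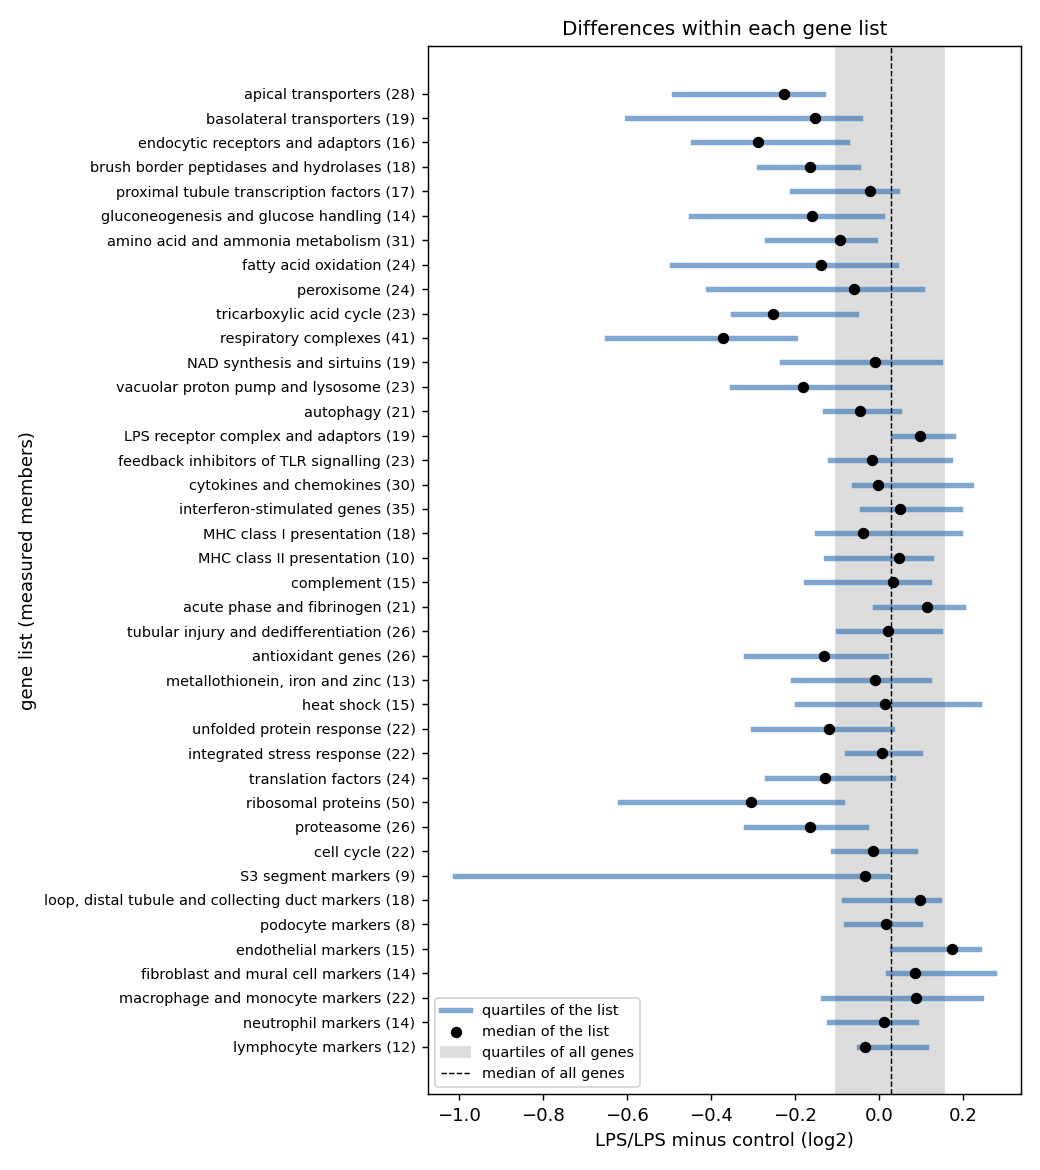
Median log2 difference (LPS/LPS minus control) of each gene list as a black point, with a blue bar from the lower to the upper quartile of its members and the number of measured members in brackets. The dashed line is the median of all genes, 0.03, and the grey band their quartiles. The medians of the transporter, endocytosis, respiratory and ribosomal lists lie to the left of the grey band, and the endothelial median, 0.17, lies to its right.

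The machinery of protein synthesis and breakdown also leaned lower. Of 50 ribosomal protein genes, 41 were lower and 9 higher, at a median of −0.30 (−0.52 in the wide and −0.15 in the narrow arrays), and 6 were lower at an unadjusted p under 0.05 (2.07% of all genes). Without LPS/LPS 5 the median was −0.17. Rpl7a, a protein of the large subunit, was at 6.77, 6.20, 6.59 and 5.81 against 5.78, 5.23, 5.78, 5.73 and 5.33, a difference of −0.77 (SE 0.23) with no overlap. Rpl38 differed by −1.52 (SE 0.45), with −2.33 in the wide and −0.76 in the narrow arrays. Ribosomal protein genes have many near-identical processed pseudogenes, so probe sets of this family can take signal from other copies.

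Translation factors had 15 of 24 genes lower, at a median of −0.13, which was −0.046 without LPS/LPS 4. Eef2, which moves the ribosome along, differed by −1.27 (SE 0.56) with overlapping arrays. Of 26 proteasome genes, 21 were lower and 5 higher, at a median of −0.16, and Psmc2, an ATPase of its regulatory particle, differed by −0.56 (SE 0.20), or −0.21 with the mean of its probe sets. The vacuolar proton pump and lysosome list had 17 of 23 lower, at −0.18 (−0.11 without control 1), with Atp6v1e1, a pump subunit, at −0.59 (SE 0.28). Autophagy genes split 11 to 10, so Gabarapl1 stood beside a list median of −0.05. In these lists no gene passed the test.

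**Figure D4:**
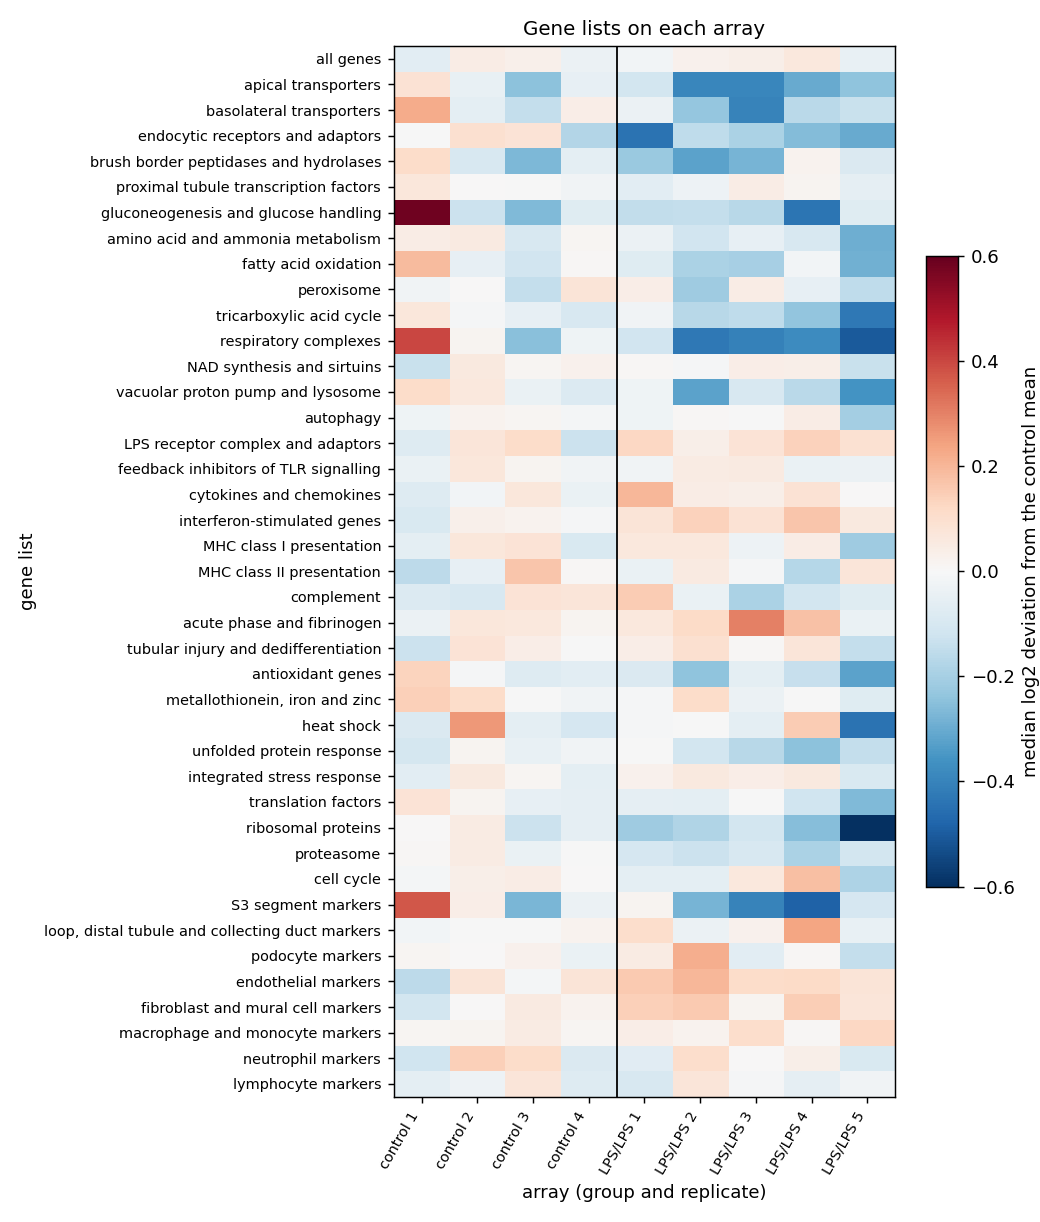
Median log2 deviation of each gene list (rows) from the control means in each of the 4 control and 5 LPS/LPS arrays (columns), with red for positive and blue for negative values. The ribosomal list is lowest in LPS/LPS 5, at −0.60, and control 1 has the highest values of the gluconeogenesis and respiratory lists.

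Large positive differences were fewer. By the rule used for the lower genes, the 12 largest without overlap were Phf11b, Uimc1, Rflnb, Nlrp12, Rbm38, Aif1l, Lysmd1, Klk4, Kcnj11, Tor4a, Ap5z1 and Gcsh, from 0.85 to 0.44, and none passed the test. Of these, Nlrp12 and Ap5z1 were above the reference in the LPS/LPS mean but not in the mean over the 13 arrays. The rule leaves out Vmn1r43, a vomeronasal receptor gene without overlap at 1.20 (SE 0.35, limma adjusted p = 0.921). Phf11b, a PHD finger gene, was at 5.22, 5.35, 5.07 and 4.62 in control and 5.40, 6.33, 5.97, 6.12 and 5.76 in LPS/LPS. LPS/LPS 1 was only just above the highest control array, and the difference was 0.85 (SE 0.21, limma adjusted p = 0.921). Nlrp12, an NLR protein known as a brake on NF-kB signalling in myeloid cells, was at 4.61, 4.50, 4.30 and 4.46 against 4.99, 5.12, 5.04, 5.08 and 5.03. Its LPS/LPS arrays were tightly grouped, and the difference was 0.59 (SE 0.11, limma adjusted p = 0.295).

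Uimc1, which brings the BRCA1-A complex to ubiquitin at DNA breaks, was at 5.38, 4.78, 5.03 and 5.18 in control and 6.53, 5.62, 5.39, 6.16 and 5.61 in LPS/LPS. The difference was 0.77 (SE 0.24), nearly equal in both width classes, but 0.28 with the mean of its probe sets. Rflnb, a regulator of filamin, differed by 0.61 (SE 0.14). Rbm38, an RNA-binding protein induced by p53, differed by 0.53 (SE 0.18), and Klk4, a kallikrein serine protease, by 0.50 (SE 0.13). By the same rule the differences of the 12 higher genes ran up to 0.85 and those of the 12 lower genes began at −1.41.

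**Figure D5:**
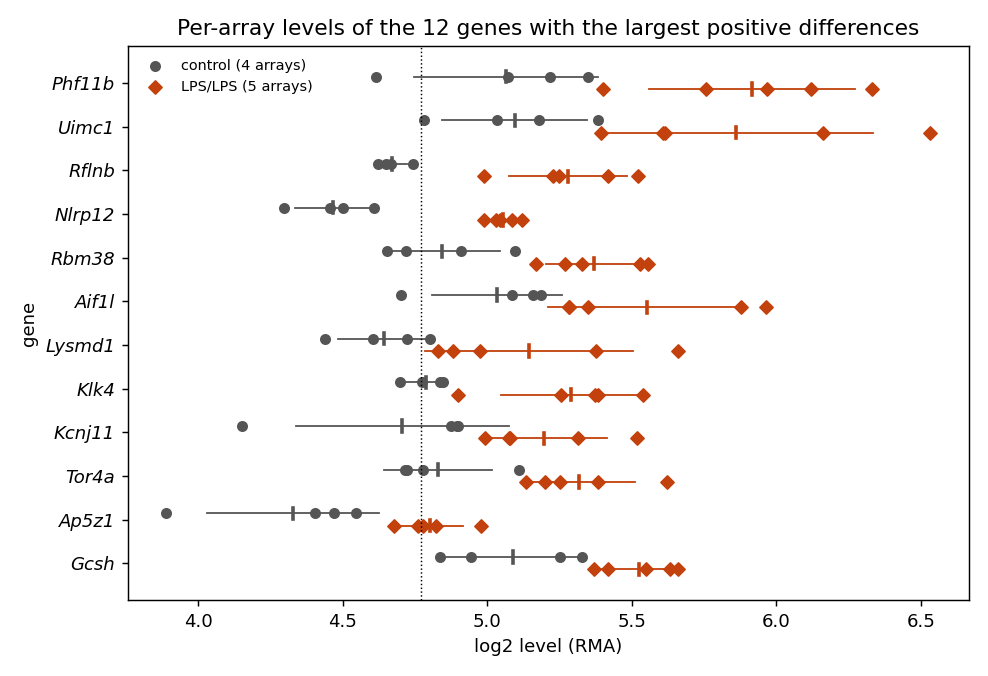
Log2 level (horizontal axis) of the 12 genes with the largest positive differences among those whose groups do not overlap, with a grey circle per control array, an orange diamond per LPS/LPS array, a tick at each group mean and a line of 1 SD either side. The dotted vertical line is the background reference. The orange points lie to the right of the grey ones in each row because the genes were chosen for that, and the levels lie between 3.89 and 6.53.

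Genes of LPS sensing and response mostly showed small differences 24 h after the challenge. Most members of each of these lists had a mean at or below the background reference, so small differences there do not show a lack of response. In the LPS receptor complex and its adaptors, 17 of 19 genes were higher and 2 lower, at a median of 0.10, with all 19 means at or below the background reference and none at an unadjusted p under 0.05. Tlr4, the receptor, was at 2.44, 3.21, 3.03 and 2.18 in control and 2.58, 2.59, 3.66, 3.19 and 3.21 in LPS/LPS. Its arrays overlapped far under the reference, with a difference of 0.33 (SE 0.25, limma adjusted p = 0.987). Cd14 was at 3.61, 3.68, 3.87 and 3.72 against 3.62, 4.00, 4.47, 3.74 and 3.42. LPS/LPS 3 was the high array, and the difference of 0.13 (SE 0.27) was −0.02 without it.

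Of 23 feedback inhibitors of TLR signalling, 12 were lower and 11 higher, and 2 had a mean above the reference. Tnip1, which acts with A20, was higher in every LPS/LPS array than in any control array, by 0.28 (SE 0.12), under the reference. Sigirr, an inhibitory member of the IL-1 receptor family, differed by −0.42 (SE 0.20). Cytokines and chemokines split 15 to 15 at a median of 0.00, with 2 of 30 genes above the reference. The 3 with the lowest p were the growth factor Csf2 at 0.52 (0.15 with the mean of its probe sets), Csf3 at 0.49 and the chemokine Ccl20 at 0.46, each with overlapping arrays.

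Interferon-stimulated genes had 22 of 35 higher (62.9%, against 55.8% of all genes) and 13 lower. Their median was 0.05, and 2 of 35 genes were above the reference. Gbp7, a guanylate-binding protein, was at 4.21, 3.31, 3.58 and 3.44 in control and 4.33, 4.54, 4.12, 4.13 and 4.42 in LPS/LPS. Only control 1 reached the LPS/LPS range, and the difference was 0.68 (SE 0.19, limma adjusted p = 0.921). Rtp4, a chaperone of receptor transport, differed by 0.50 (SE 0.16) and Ifit3, an antiviral RNA-binding protein, by 0.48 (SE 0.29, and 0.29 without control 1). Probe sets of Gbp genes, of H2 genes and of Orm1 and Orm2 can take signal from close family members.

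The MHC class I list had 10 of 18 genes lower and the class II list 3 of 10. H2-T23 differed by −0.71 (SE 0.33) and H2-M3 by 0.32 (SE 0.15), both with overlap. Complement genes split 7 lower to 8 higher, with 2 of 15 above the reference, and Cfb, a factor of the alternative pathway, differed by −0.51 (SE 0.26). Acute phase genes had 15 of 21 higher, at 0.11 (−0.03 in the wide and 0.21 in the narrow arrays).

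Lcn2, which encodes the iron-siderophore carrier NGAL and is used as a marker of tubule stress, was at 3.68, 3.94, 3.60 and 4.02 in control and 5.12, 4.45, 4.81, 4.38 and 4.11 in LPS/LPS. All LPS/LPS arrays were above all control arrays, by 0.77 in both width classes, at a difference of 0.76 (SE 0.29, limma adjusted p = 0.987). Every control value of Lcn2 and some of its LPS/LPS values were under the background reference of 4.77. Havcr1, the injury marker KIM-1, was at 3.34, 2.84, 3.34 and 3.27 against 3.48, 3.50, 3.41, 3.26 and 3.04. Its groups overlapped, with a difference of 0.14 (SE 0.19), and the wide arrays gave −0.05. The injury and dedifferentiation list split 13 to 13. In it Timp3, an inhibitor of matrix metalloproteinases, was at 5.19, 5.25, 4.71 and 4.71 against 3.92, 3.93, 3.57, 3.56 and 3.79, with a wide gap between the groups. The difference was −1.21 (SE 0.20, limma adjusted p = 0.17). Every LPS/LPS value of Timp3 and those of control 3 and 4 were under the reference.

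Antioxidant genes had 19 of 26 lower and 7 higher, at a median of −0.13 (−0.23 without control 4), with no gene past the test. Gpx3, the secreted glutathione peroxidase made by the proximal tubule, was at 6.997, 6.95, 6.46 and 6.73 in control and 6.73, 5.91, 5.34, 4.97 and 5.72 in LPS/LPS. LPS/LPS 1 reached the control range, and the difference was −1.05 (SE 0.32, limma adjusted p = 0.949). Gpx1 differed by −1.44 (SE 0.44) and Sod1, the cytosolic superoxide dismutase, by −1.46 (SE 0.59), and both overlapped. Fth1, the heavy chain of ferritin, was at 9.68, 9.45, 8.79 and 9.19 against 9.42, 7.89, 7.98, 8.24 and 7.50, a difference of −1.07 (SE 0.35).

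Genes of the unfolded protein response had 14 of 22 lower, with Herpud1, an ER membrane protein of protein degradation, at −0.41 (SE 0.19). The integrated stress response split 11 to 11 and the heat shock genes 7 lower to 8 higher. Hspa8, the constitutive Hsc70 chaperone, was at 7.42, 5.83, 4.60 and 6.54 in control and 7.03, 7.55, 8.74, 7.52 and 5.13 in LPS/LPS. With the mean of its probe sets it differed by 0.32. The wide arrays gave −0.90 and the narrow ones 2.73, so its difference of 1.10 (SE 0.70) has no single direction in these data. Cell cycle genes had 13 of 22 lower, at −0.01, with Top2a at 0.37 (SE 0.21).

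Markers of other cells that a tubule sample could hold were also measured. The mean level of 14 fibroblast and mural cell markers per array was 3.83 to 4.00 in control and 4.02 to 4.18 in LPS/LPS. These array means did not overlap, but each single marker overlapped between the groups. Of the 14, 11 were higher (78.6%, against 55.8% of all genes). Their median difference was 0.08, within the quartiles of all genes (−0.10 to 0.15). Only 2 of the 14 exceeded the reference, so most of this list was dim. Col1a2, a chain of type I collagen, differed by 0.48 (SE 0.14, limma adjusted p = 0.921), or 0.29 with the mean of its probe sets. For 15 endothelial markers the range was 3.79 to 3.96 in control and 3.93 to 4.07 in LPS/LPS, and 13 of 15 were higher, at a median of 0.17. Of these 15, only 1 had a mean above the reference. Cdh5, VE-cadherin, differed by 0.44 (SE 0.20), with −0.02 in the wide and 0.81 in the narrow arrays.

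Of 22 macrophage and monocyte markers, 13 were higher (59.1%, against 55.8% of all genes). Their mean level was 3.83 to 3.91 in control and 3.82 to 4.03 in LPS/LPS. Mrc1, the mannose receptor, differed by 0.53 (SE 0.23). Neutrophil markers split 7 to 7, lymphocyte markers 7 lower to 5 higher and podocyte markers 4 to 4. Of the 9 S3 segment markers 6 were lower, and their mean level per array was 3.87 to 4.78 in control and 3.75 to 4.46 in LPS/LPS. The 18 markers of the later nephron (loop, distal tubule, collecting duct) had mean levels per array of 4.14 to 4.28 and 4.15 to 4.36. None of these markers passed the test. The part of other cells in the lower levels of transporter and metabolic genes was not tested.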

How the data were processed

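Affymetrix arrays had been hybridised with RNA of S1 tubules, extracted with the PicoPure kit and precipitated with isopropanol, and 2 ng per sample had been labelled by the WT Pico method, per the labels' protocols. The values deposited by the authors are log2 levels of probe sets, for which RMA and Partek 6.6 are named in the submitters' processing notes. How background was corrected, how arrays were normalized and which build was used is not given in the sources used here. RMA leaves some background signal in dim probe sets, which compresses their differences toward 0. The number of arrays limits the precision.

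Of 41345 probe sets, the platform annotation gives 23521 a single symbol, 1814 several and 16010 none. The last 2 kinds were left out. For a gene with several probe sets, the one of highest mean over the 13 arrays was taken. All 13 arrays entered 1 fit with no covariates (limma 3.58.1, lmFit and eBayes, R 4.3.3), tested on simulated data, and the LPS/LPS minus control contrast was adjusted by Benjamini-Hochberg over 22180 genes, with a threshold of 0.05. Same-numbered arrays deviated from their group means with correlations of 0.17, 0.22, 0.07 and −0.15, so the numbers were not taken as pairs.

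Named genes were those past the threshold, the 12 largest differences in each direction among genes with no overlap and 1 group mean above the reference (without predicted, small RNA and receptor-segment genes), the 3 lowest p of each of 40 lists, and, whatever their values, Slc34a1, Slc5a2, Havcr1, Lcn2, Cd14 and Tlr4. BC024386, Ost4, Kap, Cltrn, Atp1b1, Rhoa, B2m, the promoters shown and the olfactory reference were chosen outside that rule after values were seen. The genes, lists (929 genes, 836 measured) and tests were chosen with earlier results of these data known, so list counts and medians carry no p. Alternatives were another scaling, probe-set rule, filter, variance model, block, width class, or 1 array left out.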

Additional observations from a re-analysis of the deposited data

Results flagged for a closer look

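Of 276 group and gene combinations examined among the named genes, 15 had 1 array farther from the others than Dixon's 95% limit, and chance alone gives about 1 in 20, or 13.8 of them. Control 3 was low for Lpl (4.76, nearest array 5.79) and Kcnj11 (4.15 against 4.87) and high for Rab5a (3.76 against 2.89) and H2-Ob (4.36 against 3.86). Control 2 was low for Top2a (2.87 against 3.21), Cd2ap (2.37 against 2.79) and Havcr1 (2.84 against 3.27). Control 4 was high for Tor4a (5.11 against 4.78) and low for Tnip1 (3.59 against 3.99). Among the LPS/LPS arrays, replicate 3 was low for Ifit3 (5.73 against 6.08) and high for Ccnb2 (3.70 against 3.53) and Ltf (4.38 against 3.91). LPS/LPS 5 was low for Lpl (3.32 against 4.14), LPS/LPS 4 for Scp2 (3.48 against 3.91) and LPS/LPS 1 for Slc26a4 (3.37 against 3.52).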

How the results depend on the processing

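The number of genes past the limma test, 2, was 0 with the 9 arrays fitted alone (1162 genes at an unadjusted p under 0.05), 0 with a replicate block (1005), 0 without moderation (1056), 0 over all probe sets (1869), 0 in the wide arrays (1170) and 0 in the narrow arrays (1300). It was 4 with the width class as a block, 4 after quantile normalization and 1 after median centring, and 0 to 3 with an array left out. Under the replicate block, which rests on numbers that do not pair the arrays, Cndp2 differed by −2.10 (limma adjusted p = 0.0926). The 341 genes without overlap became 84 among genes above the reference, 624 over all probe sets and 571 to 762 with an array left out. The 81 lower genes stayed within 1.5 times that number under every alternative run, 57 to 108 with an array left out, 118 in the wide and 83 in the narrow arrays. The 8 higher genes became 5 with the mean of probe sets, 45 in the wide arrays, 21 in the narrow arrays and 8 to 16 with an array left out. These width-class settings were added after seeing the data. Of 2816 values of named genes, 2780 kept their direction and side of the threshold, 22 lost the call, 4 gained it and 10 changed sign. Only Cndp2 and Gm12770 had a call to lose, so all 22 losses were among the 21 values of Cndp2 and the 20 of Gm12770. Most of the 2780 were genes that did not pass the test in the main fit either, so that number does not measure how stable the calls were. With an array left out, Cd14 gave −0.023 (without LPS/LPS 3) to 0.24 (without LPS/LPS 5). The wide arrays gave Calr 0.0037, H2-Oa −0.064, Hspa8 −0.90, Cd2ap −0.15, Cdh5 −0.018, Cxcr2 −0.14, Ngp 0.079, Cd14 −0.15 and Havcr1 −0.0455. Of 827 list medians under the alternatives, 32 moved by at least the SD of that list's array medians within a group, taking the larger of the 2 groups. Apart from there being fewer arrays or more probe sets, the cause of these changes was not tested. Signal over background limits most of these genes, since 2207 of 22180 had a mean above the reference.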
